A study of Peniophora incarnata with 12 samples.

Results

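Peniophora incarnata is a crust-forming basidiomycete of the white-rot type, and the genes described here are those whose mRNA moved the same way on 3 different plant materials. Wild type strain T-7 was grown for 30 days at 28 °C and 75% relative humidity, in the dark and without shaking, on powdered poplar wood, on powdered Chinese fir wood (fir wood from here on), on powdered rice straw or on PDA (potato dextrose agar, a sugar-rich laboratory medium). The powders had passed a 60 mesh sieve, which leaves particles of about 250 µm. Poly(A) RNA of mycelium was sequenced from 3 biological replicates per condition, 12 libraries in all, and no sample received a further treatment. A gene was taken as a member when it was called against PDA in the same direction on each of the 3 substrates and also in their equally weighted mean. A call required a Benjamini-Hochberg adjusted p under 0.05 in a limma fit of log2(FPKM + 1) and a log2 fold change of 1 or more in size. FPKM are fragments scaled to gene length and library size. Of 16059 deposited genes 13974 passed the filter on low values, and 872 of these were members, 165 higher and 707 lower than on PDA.

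White-rot fungi live on the polymers of plant cell walls. They secrete hydrolases that cut cellulose and hemicelluloses, and oxidative enzymes such as laccases and class II peroxidases that attack lignin, and they take up the released sugars, peptides and amino acids. On a sugar medium the same mycelium can draw on glucose directly. Fats, amino acids and stored material are handled through peroxisomes, the glyoxylate cycle and autophagy, on whichever medium they are used. How much sugar was left on PDA after 30 days was not tested. Each substrate class was represented by 1 material, so a difference between materials is not a difference between hardwood, softwood and straw in general. In bulk RNA, fewer cells of a kind and less RNA per cell cannot be told apart. Each p-value sets a difference of group means against the spread between replicate cultures. That spread was pooled for each gene over all 4 groups and moderated across genes, so it is not the spread of any single group.

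The libraries held 23398461 to 31132066 fragments as worked back from the FPKM steps. In a gene of median length (1413 bp, taken as coding length) 1 FPKM thus stood for 33.1 to 44.0 fragments. The PDA libraries ran above the substrate libraries for the typical gene, with ratios to the geometric mean library of 1.196 to 1.22 against 0.783 to 1.108. The median log2 fold change over all tested genes was -0.29, and it was 0.02 once each library was divided by its median ratio. The share of FPKM held by the 10 most abundant genes was 4.67% to 5.48% on PDA, 8.61% to 9.73% on poplar wood, 13.9% to 14.7% on fir wood and 9.10% to 9.35% on straw. The poplar wood cultures spread most, with a median SD over genes of 0.46 on the log2 scale against 0.15 to 0.19 in the other groups. The pooled spread of the fit did not allow for this difference. Fir wood 1, rice straw 3 and PDA 2 each lay close to a mixture of the other libraries of their group, and are called the 3 in-between libraries. Leaving them out keeps the replicates of those groups that differ most and leaves fewer libraries. Calls lost in that setting therefore follow in part from how the setting was made. The summed FPKM of 39 deposited housekeeping genes of growing hyphae was 8480 to 8705 on PDA, 6359 to 10444 on poplar wood, 4635 to 6044 on fir wood and 5363 to 5988 on straw. The sum leans on its abundant genes, of which 1 reached 6257 FPKM in a library. Of the 38 tested, none was called higher and 2 lower in the mean of the substrates, with a median log2 fold change of 0.08 against -0.29 over all genes. After division by the median ratio 4 were higher and 2 lower, with a median of 0.41 against 0.02. The part of these differences in the results was not tested.

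The shared change was mostly downward. In the mean of the 3 substrates against PDA, 615 genes were called higher (4.4% of tested genes) and 2011 lower (14.4%). The 165 genes that rose on all 3 substrates were 1.18% of tested genes and the 707 that fell were 5.06%, or 6.24% together. These shares are the background for the counts of each gene list below. On single substrates 1160 genes were called higher and 2396 lower on poplar wood (8.3% and 17.1%), 826 and 3430 on fir wood (5.91% and 24.5%), and 952 and 1971 on straw (6.81% and 14.1%). The 3 comparisons share the PDA libraries, so their agreement was not tested. The balance depended on the scaling. After division by the median ratio, 258 genes rose and 410 fell on all 3 substrates, so that rises made up 38.6% of shared genes in place of 18.9%. In the mean contrast rises were 47.5% of calls in place of 23.4%. All 165 rises and 410 of the 707 falls were still shared under that scaling. The remaining falls did not pass on each substrate relative to the median gene. Leaving out each of the 12 libraries in turn, 100 of the 165 rises and 484 of the 707 falls remained in every fit.

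**Figure D1:**
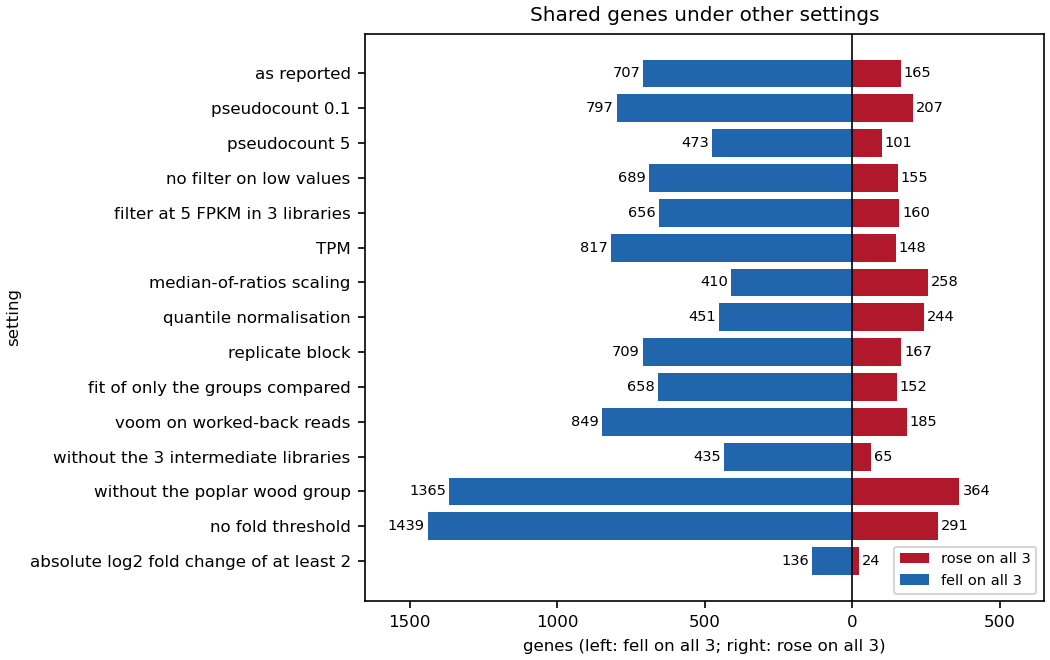
Number of genes that rose (right, red) or fell (left, blue) on all 3 substrates against PDA, for the settings as reported and for 14 others named on the vertical axis. Under median-of-ratios scaling 258 genes rose and 410 fell, against 165 and 707 as reported, and without the 3 libraries that lay between the others of their group 65 rose and 435 fell.

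Members that rose went from a median of 9.62 FPKM on PDA to 69.0 FPKM on the substrates, with a median log2 fold change of 2.19 and a range of 1.11 to 8.20. Members that fell went from a median of 43.8 FPKM to 9.45 FPKM, with a median log2 fold change of -1.89. For comparison, the medians over all tested genes were 13.5 FPKM on PDA and 11.4 FPKM on the substrates. All 9 substrate libraries stood above all 3 PDA libraries for 160 of the 165 rises, and below them for 689 of the 707 falls. These counts follow in part from how members were chosen, and over all tested genes the shares were 3.78% and 16.3%. The largest change was on fir wood for 82 of the 165 rises and for 392 of the 707 falls. A described product was listed for 76 of the rises (46.1%) and 419 of the falls (59.3%), against 55.1% of tested genes.

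How even the change was over substrates was tested by comparing the 3 substrate means with one another in the fit of all 4 groups, where PDA enters the estimate of the spread but not the means compared. By this limma F test 8582 of the tested genes differed among the 3 substrates (61.4%), and 7443 in a fit of the substrate libraries alone. Among members the counts were 110 of 165 rises (66.7%) and 358 of 707 falls (50.6%). Members were chosen by the size of these same substrate means against PDA, so their shares depend in part on that choice. The 3 log2 fold changes of a gene spanned a median of 1.40 in the rises and 0.79 in the falls. The added 1 in log2(FPKM + 1) narrows spans among low values. Falls were the lower on the substrates, at a median of 9.45 FPKM against 69.0 for rises. The part of this in the spans was not tested. At the fold threshold, the closest members were atnB (A05851) and A15467, both just past it on poplar wood and both lost when poplar wood 1 or PDA 1 was left out, and the closest genes outside it were A17645 and A04826. A further 858 genes passed the adjusted p on all 3 substrates and in the mean with the same sign but changed less than the threshold on at least 1 of them.

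**Figure D2:**
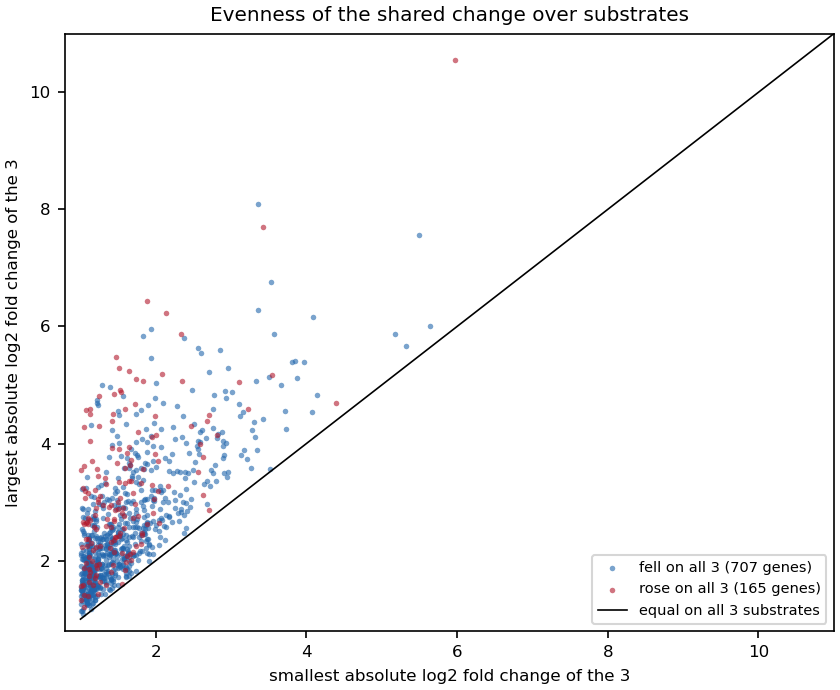
Smallest against largest absolute log2 fold change over the 3 substrates for each member, with the 165 rises in red, the 707 falls in blue and the line of equal change. Members with a large change on all 3 substrates are few, and the falls lie nearer the line than the rises, with a median span of 0.79 against 1.40. The added 1 in log2(FPKM + 1) narrows spans among low values, and the falls had the lower median on the substrates.

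Several enzymes that act on hemicellulose rose on all 3 materials, among them a mannanase, a xylanase and esterases that free side groups. Of 103 tested hemicellulases and accessory esterases 27 were called higher in the mean and 5 lower (4.4% and 14.4% of all tested genes), and 8 rose and 3 fell on all 3 substrates (1.18% and 5.06%). The list's median log2 fold change was 0.35 against -0.29 over all genes. Under median-of-ratios scaling 11 rose and 1 fell. Calls on single substrates were 21 higher on poplar wood, 15 on fir wood and 40 on straw. Without the 3 in-between libraries 2 rose and 2 fell on all 3.

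The most abundant of these rises was the endo-1,4-β-mannanase manA (A16049), which cuts the backbone of mannans. It was read at 7694, 4033 and 1893 FPKM in the poplar wood libraries, 1985, 2527 and 1591 on fir wood, 1504, 881 and 1139 on straw and 414, 490.0 and 569 on PDA. Every substrate library lay above every PDA library, with the widest spread on poplar wood, and rice straw 2 came closest to PDA. Its change in the mean was 2.09 ± 0.34 (SE; limma adjusted p = 0.000426), and the values on poplar wood, fir wood and straw were 2.99, 2.03 and 1.23. The 3 substrates differed (F test adjusted p = 0.00926). Its call on straw was lost when any of rice straw 1, rice straw 3 or a PDA library was left out.

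The endo-1,4-β-xylanase xynA (A13980), which cuts xylan chains, was at 99.7, 76.3 and 43.8 FPKM on poplar wood, 13.8, 19.2 and 5.72 on fir wood and 82.6, 31.9 and 66.3 on straw against 2.36, 2.29 and 1.89 on PDA. Fir wood was the low substrate and no group overlapped PDA. Averaged over substrates the log2 fold change was 3.54 ± 0.36 (adjusted p = 1.35e-05) and the substrates differed (F test adjusted p = 0.000904). Of 4 tested genes described as 4-O-methyl-glucuronoyl methylesterase, which splits the ester bond between glucuronoxylan and lignin, 2 rose. A15368 averaged 30.3 ± 11.9, 17 ± 0.587 and 34.7 ± 10.3 FPKM (SD, n = 3) against 5.37 ± 1.18 on PDA, and A09557 averaged 16 ± 2.47, 7.33 ± 1.25 and 18.4 ± 6.67 against 2.16 ± 0.595. In the mean they changed by 2.08 and 2.14. The GH30 xylanase Xyn30A (A18068) and 2 of 10 tested acetylesterases (aes1, A08353 and A05229), which remove acetyl groups, rose by 1.76, 2.07 and 1.90. Of 10 tested beta-glucuronidases 1 (A13889) rose by 2.32 while 2 others (A08717 and A11674) changed by -1.49 and -1.23, and the xylanase xynB (A13983) by -1.78. All 3 of the last were falls, and A08717 lost the shared call under median-of-ratios scaling. Leaving out a single library ended the shared call of Xyn30A (fir wood 2 or PDA 2), A05229 (poplar wood 1 or PDA 2), A13889 (rice straw 1, rice straw 3 or PDA 1) and A11674 (rice straw 1).

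Among cellulose-degrading enzymes 4 rose on all 3 materials, all described as endoglucanases or a β-glucosidase. Of 45 tested genes 16 were called higher and 1 lower in the mean, against 4.4% and 14.4% of all tested genes, with a median of 0.62. On all 3 substrates 4 rose and 1 fell, against 1.18% and 5.06%. Rice straw had 23 genes higher, poplar wood 9 and fir wood 6. The count of 4 rests on single libraries. It became 1 without the 3 in-between libraries, 1 without fir wood 2, and 2 without poplar wood 2, fir wood 1, PDA 1 or PDA 2.

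The endo-β-1,4-glucanase eglB (A09810), which cuts within cellulose chains, was at 5.78, 5.44 and 2.82 FPKM on poplar wood, 3.19, 4.67 and 2.2 on fir wood, 40.1, 45 and 43.3 on straw and 0.705, 0.856 and 1.29 on PDA. Straw libraries stood far above both woods, which in turn stood above PDA. Its log2 fold changes were 1.51, 1.13 and 4.50 (mean 2.38 ± 0.21, adjusted p = 5.97e-06), and the substrates differed (F test adjusted p = 3.55e-06). The 2 members named eglD (A14936 and A03217), of 4 tested genes with that description, were likewise highest on straw, with 1.74, 1.44 and 4.50 and 1.33, 1.06 and 3.06. Without fir wood 2 none of these 3 genes was called on all 3 substrates, and both eglD genes also lost the call without poplar wood 2, fir wood 1, PDA 1 or PDA 2. For A03217 poplar wood 3, at the low end of 3.88, 5.33 and 1.18 FPKM, was below PDA 3. The β-glucosidase BGL1B (A06070), which splits cellobiose to glucose, changed less. It averaged 11.4 ± 3.4, 10.6 ± 0.903 and 14.5 ± 1.29 FPKM on the 3 substrates and 4.16 ± 0.365 on PDA, with a mean log2 fold change of 1.33 ± 0.18 (adjusted p = 0.000103). A second β-glucosidase, bglL (A13729), fell from 24 ± 4.65 to 5.47 ± 1.72, 1.95 ± 0.32 and 4.71 ± 0.729 FPKM.

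Of the enzymes that act on lignin, few moved together. Among 26 laccases and multicopper oxidases 8 were called higher and 4 lower in the mean, against 4.4% and 14.4% of all tested genes. On all 3 substrates 1 rose and 1 fell, against 1.18% and 5.06%. The list's median was 0.27 in the mean contrast but -0.47, -0.19 and -0.35 on poplar wood, fir wood and straw taken singly. The laccase LCC4 (A17335), a copper enzyme that oxidises phenols, was the rise. Its FPKM were 94.1, 70.1 and 57.1 on poplar wood, 162, 156 and 178 on fir wood, 37.7, 36.3 and 34.7 on straw and 8.81, 9.28 and 7.86 on PDA. The 4 groups did not overlap one another. Its log2 fold change in the mean was 2.99 ± 0.15 (adjusted p = 2.21e-07), with 2.93, 4.11 and 1.95 on the 3 substrates, which differed (F test adjusted p = 1.24e-05). A gene described only as laccase (A13432) fell, from 124 ± 34.7 FPKM on PDA to 46.3 ± 24.4, 36.3 ± 1.18 and 7.85 ± 1.64, and lost its shared call without poplar wood 3. Of 23 class II peroxidases, the manganese and versatile peroxidases that oxidise lignin units, 9 were called higher in the mean. None rose on all 3 substrates, and 14 were higher on poplar wood, 4 on fir wood and 3 on straw. The versatile peroxidase vpl1 (A14932) fell on all 3, from 10.5 ± 1.02 to 4.68 ± 1.93, 2.63 ± 0.362 and 4.02 ± 0.453 FPKM, and lost the shared call under median-of-ratios scaling, under quantile scaling and without poplar wood 1. Among 42 auxiliary oxidases and reductases, which supply hydrogen peroxide or reduce quinones, 2 were called higher and 4 lower in the mean and none moved on all 3. The same held for 35 pectin-degrading enzymes, with 3 and 1 in the mean.

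**Figure D3:**
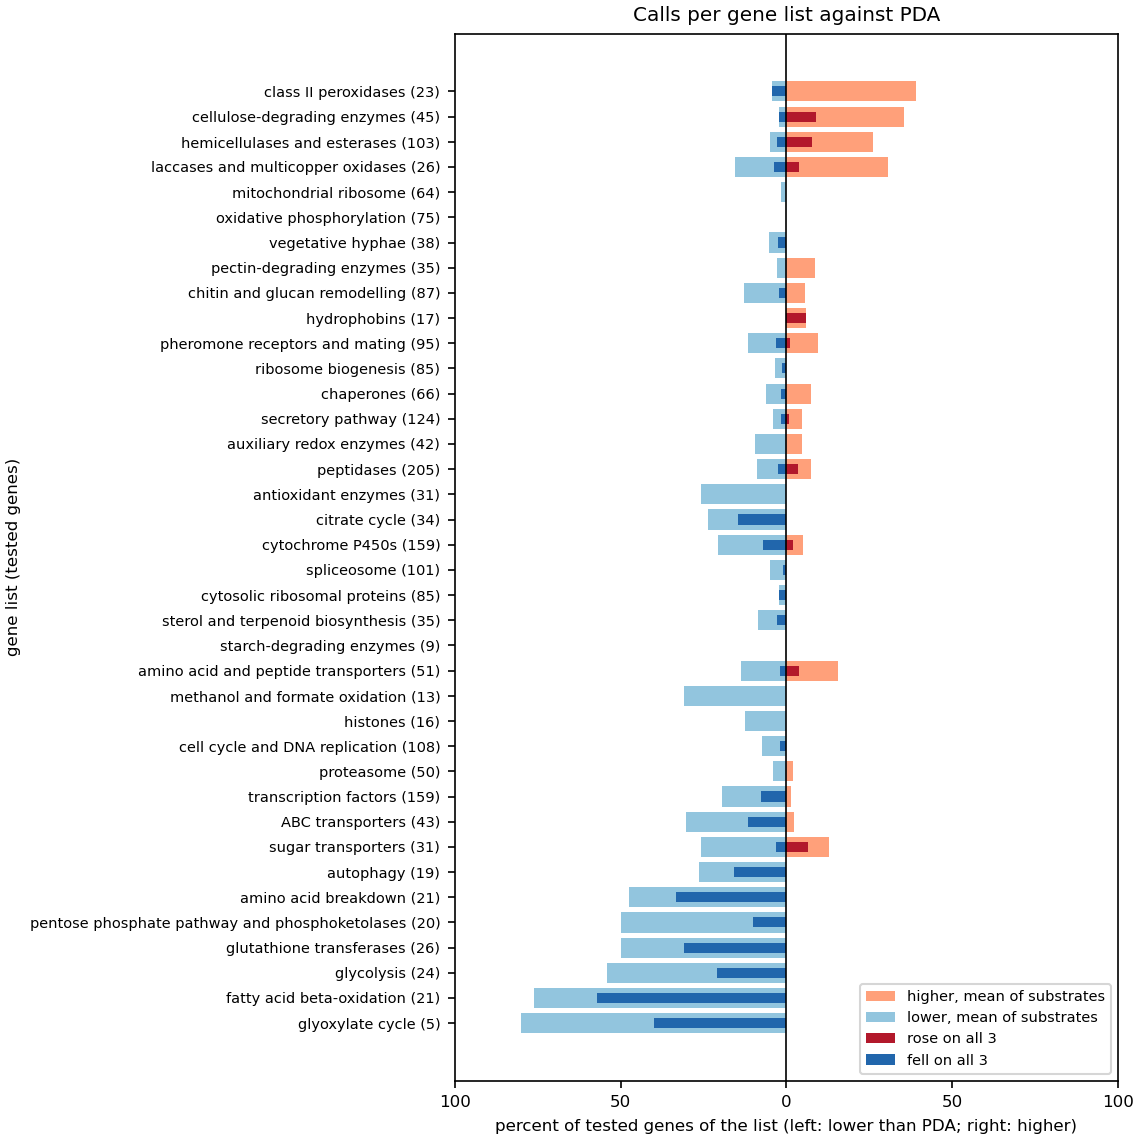
Percent of the tested genes of each list called against PDA, with wide pale bars for the mean of the 3 substrates, narrow dark bars for genes called on all 3, rises to the right and falls to the left, and lists ordered by median log2 fold change. Fatty acid β-oxidation has 12 of 21 genes fallen on all 3 substrates, while class II peroxidases have 9 of 23 higher in the mean and none risen on all 3.

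Peptidases moved both ways on all 3 materials, and the 7 that rose were 6 aspartic or glutamic peptidases and the tripeptidyl peptidase sed3. Of 205 tested peptidases 15 were called higher and 18 lower in the mean (median -0.13), against 4.4% and 14.4% of all tested genes. On all 3 substrates 7 rose and 5 fell, against 1.18% and 5.06%. Under median-of-ratios scaling the counts were 10 and 2, and without the 3 in-between libraries 1 and 2.

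The aspartic protease pepA (A00467), a secreted endopeptidase in Aspergillus, was the most abundant of the 7 rises. Its FPKM were 1412, 684 and 164 on poplar wood, 490.0, 593 and 386 on fir wood, 432, 344 and 385 on straw and 40.9, 66.3 and 85.3 on PDA. Poplar wood 3 was the lowest substrate library and still above PDA. In the mean contrast it changed by 2.90 ± 0.48 (adjusted p = 0.000492), with 3.12, 2.95 and 2.63 on the 3 substrates (F test adjusted p = 0.729). A gene described as vacuolar aspartic protease (A18832) was read at 334, 87.2 and 22.5 FPKM on poplar wood, 81.5, 102 and 64.5 on fir wood, 108, 75.5 and 90.8 on straw and 10.6, 12.4 and 11.7 on PDA. The poplar wood libraries spread most here too, and the 3 log2 fold changes were 2.82, 2.71 and 2.87. The tripeptidyl peptidase sed3 (A01964), which trims tripeptides from chain ends, averaged 206 ± 51.8 FPKM on poplar wood, 51.2 ± 14.9 on fir wood and 43.2 ± 9.23 on straw, against 14.6 ± 7.79 on PDA. Polyporopepsin (A03132), an aspartic protease first known from bracket fungi, rose by 2.05, and 2 of 11 tested aspergillopepsin-2 genes (A03170 and A05374) by 3.30 and 2.76. An aspartic protease described as pr1 (A11130) rose by 2.33. Without the 3 in-between libraries all of these rises but A11130 missed a call, and A11130 did so without PDA 3. A03170 lost the call without any one of the fir wood or PDA libraries or rice straw 3, and A05374 without rice straw 1, rice straw 3 or PDA 1. The falls were sed2 (A06284, -2.80), the dipeptidyl-aminopeptidase dapB (A09933, -3.22), a pr1 gene (A08898, -2.01, lost without rice straw 1 or rice straw 3), APE2 (A13959, -1.39) and a serine carboxypeptidase (A18397, -1.45). Under median-of-ratios scaling A18397 lost the shared call.

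A proline permease, a peptide transporter and a pair of sugar permeases rose on all 3 materials. Of 51 amino acid and peptide transporters 8 were higher and 7 lower in the mean (4.4% and 14.4% of all tested genes), and 2 rose and 1 fell on all 3 substrates (1.18% and 5.06%). The proline permease prnB (A03975) was among the most abundant genes that rose, at 3226, 1861 and 1469 FPKM on poplar wood, 2655, 3021 and 2391 on fir wood, 2395, 2235 and 2209.6 on straw and 1035, 987 and 986 on PDA. Its change was small and similar on the 3 substrates, with log2 fold changes of 1.04, 1.42 and 1.18 (mean 1.21 ± 0.20, adjusted p = 0.000563), and it missed the call on a substrate when poplar wood 1 was left out. The peptide transporter ptr2 (A01680) averaged 858 ± 93.7, 433 ± 5.11 and 355 ± 7.46 FPKM against 165 ± 15.3, with a mean log2 fold change of 1.62 ± 0.12 (adjusted p = 1.92e-06). Of 31 sugar transporters 4 were higher and 8 lower in the mean (2 lower under median-of-ratios scaling), with a median of -0.53, and 2 rose and 1 fell on all 3. Both rises were among 6 tested genes described as lactose permease, a sugar-proton symporter in Kluyveromyces. LAC12 (A09461) was at 108, 155 and 176 FPKM on poplar wood, 193, 169 and 224 on fir wood and 461, 370.0 and 404 on straw against 45.9, 40.6 and 34.9 on PDA. No group overlapped PDA and straw was the highest, with a mean log2 fold change of 2.46 ± 0.17 (adjusted p = 9.87e-07). The other LAC12 gene (A12161) was highest on fir wood, at 493 ± 55.3 FPKM against 64.7 ± 28.6 on poplar wood, 186 ± 0.874 on straw and 19.5 ± 1.54 on PDA. The myo-inositol transporter FST1 (A06453) fell from 419 ± 158 to 151 ± 89.4, 20.4 ± 2.92 and 149 ± 11.3 FPKM, and lost its shared call without PDA 1. Of 43 ABC transporters, pumps that export drugs and other compounds, 1 was higher and 13 lower in the mean, against 4.4% and 14.4% of all tested genes, and 5 fell on all 3, against 5.06%. Under median-of-ratios scaling 5 were lower in the mean and 3 fell on all 3. YBT1 (A09009) fell by 2.92 on the log2 scale and abc4 (A02970) by 2.60.

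An abundant cytochrome P450 monooxygenase, CYP208 (A07914), rose on all 3 materials, the 1 rise among 23 tested genes with that description, of which 3 fell. Enzymes of this kind oxidise small aromatic and lipid molecules. It was read at 917, 1308 and 579 FPKM on poplar wood, 2317, 2711 and 1908 on fir wood, 999, 793 and 909.8 on straw and 74.3, 93 and 120.1 on PDA. The lowest substrate library lay well above the highest PDA library. Averaged over substrates the log2 fold change was 3.68 ± 0.23 (adjusted p = 5.71e-07), with 3.22, 4.59 and 3.24 on the 3 substrates. An aldo-keto reductase (A07912) with a nearby gene number rose in the same order, from 7.49 ± 0.323 FPKM on PDA to 39.6 ± 16.2, 119.8 ± 19.96 and 32.7 ± 2.52. Of 159 tested P450 genes 8 were higher and 33 lower in the mean, against 4.4% and 14.4% of all tested genes. The list's median was -0.31 against -0.29 over all genes. On all 3 substrates 3 rose and 11 fell, against 1.18% and 5.06%. Under median-of-ratios scaling 20 were higher and 21 lower in the mean, with 3 and 7 on all 3. The other rises were CYP215 (A11651, 2.54) and a CYP169 gene (A04991, 1.47). For CYP215 poplar wood 3 lay within the PDA range, at 25.01 FPKM, and the shared call was lost without poplar wood 1, poplar wood 2 or PDA 1. Of 7 tested CYP169 genes 3 others fell, of which A00615 went from 96.2 ± 58.3 FPKM to 9.51 ± 1.38, 10.4 ± 2.63 and 16 ± 6.29.

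The hydrophobin SC3 (A09953), a small protein that coats aerial hyphae, was the 1 gene of 17 tested hydrophobins called in the mean or on all 3 substrates. Its FPKM were 73.4, 120.4 and 347 on poplar wood, 69.9, 86.5 and 60.0 on fir wood, 181, 137 and 158 on straw and 11.5, 9.88 and 10.7 on PDA. Poplar wood 3 was the highest library and no substrate library reached down to PDA. Its log2 fold change in the mean was 3.35 ± 0.34 (adjusted p = 1.53e-05). The summed FPKM of the 20 deposited hydrophobins, 17 of them tested, was 242 to 569.8 on poplar wood, 174 to 202 on fir wood, 334 to 399.7 on straw and 149 to 213 on PDA, so the sum overlapped PDA on fir wood. Of 8 tested genes described as GPI-anchored cupredoxin, small blue copper proteins, 3 rose. The abundant one (A07847) was at 685, 1174 and 236 FPKM on poplar wood, 679.5, 928 and 545 on fir wood, 766, 287 and 536 on straw and 136, 152 and 149.97 on PDA, a mean log2 fold change of 1.99 ± 0.41 (adjusted p = 0.00215), and it lost the shared call without rice straw 1 or rice straw 3. The others (A12831 and A02533) were near 1 FPKM on PDA and rose by 4.29 and 3.52, the second not without fir wood 2, PDA 2 or PDA 3. Their replicates varied widely within rice straw, where A12831 had 82.1, 7.34 and 40.1 FPKM, and without the 3 in-between libraries none of the 3 genes was called on every substrate.

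A few other named genes rose. The short-chain dehydrogenase notP' (A09644) went from 21.9 ± 9.43 FPKM on PDA to 276 ± 142, 188 ± 20.1 and 126 ± 18.7, a log2 fold change of 3.07 ± 0.34. The NmrA-like oxidoreductase flvB (A14011) rose by 2.72 and a GMC oxidoreductase (A02379), of the family that holds alcohol and glucose oxidases, by 2.24. Of 4 tested genes described as mitochondrial NAD-dependent malic enzyme, which turns malate into pyruvate, 2 named MAE1 (A04891 and A16403) rose, by 2.18 and 1.61, and A04891 lost the shared call without any one of the rice straw libraries, PDA 2 or PDA 3. The pheromone receptor BAR3 (A01958), a mating-type protein that senses a partner's peptide, rose from 9.67, 9.53 and 9.67 FPKM on PDA to 23.9, 57.6 and 117 on poplar wood, 144, 89.7 and 202 on fir wood and 37.7, 47.4 and 42.8 on straw. The pheromone and mating list as a whole had 9 of 95 genes higher and 11 lower in the mean, against 4.4% and 14.4% of all tested genes. Its other shared members, BAR1 (A17668) and 2 of 36 tested BAR2 genes (A03891 and A09012), fell. The Golgi membrane protein TVP38 (A05519) rose from 130.1 ± 34.7 FPKM to 347 ± 215, 604 ± 39.6 and 610.5 ± 55.5, and was the 1 gene of 124 in the secretory pathway list that rose on all 3. It lost the shared call without poplar wood 1, without PDA 1 and without the 3 in-between libraries.

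**Figure D4:**
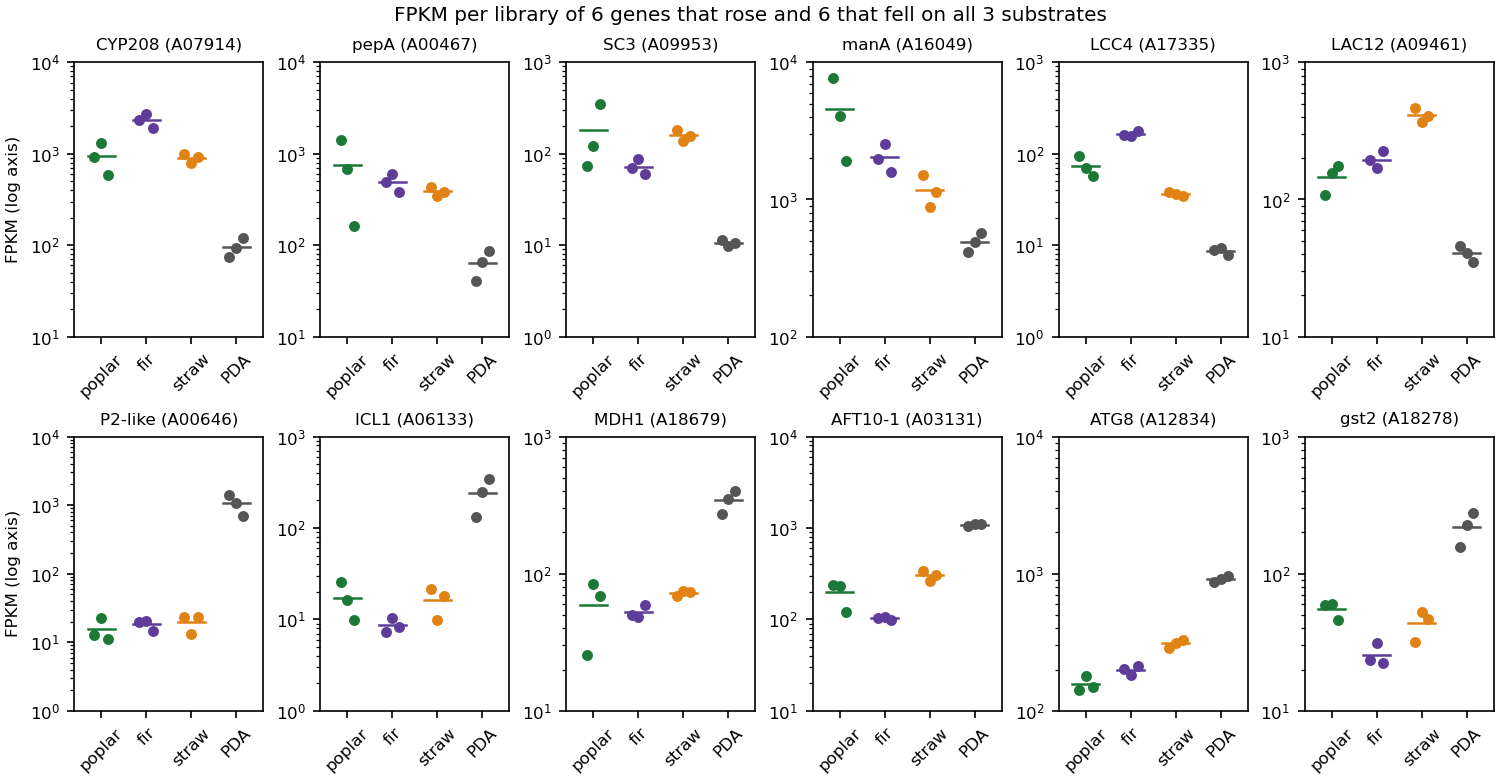
FPKM on log axes in each of the 12 libraries (points) with group means (lines) for 6 genes that rose and 6 that fell on all 3 substrates. For each gene the 9 substrate libraries lie on 1 side of the 3 PDA libraries, as for CYP208 with PDA at 74.3, 93 and 120.1 FPKM and for ATG8 (A12834) with PDA at 872, 914 and 958 FPKM.

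Genes placed by their descriptions in fatty acid β-oxidation, which shortens fatty acids to acetyl units, were often lower on all 3 materials. Of 21 tested genes 16 were lower in the mean and none higher (14.4% and 4.4% of all tested genes), and 12 fell on all 3 substrates (5.06%), with a median log2 fold change of -1.83. Under median-of-ratios scaling 15 were lower in the mean and 7 fell on all 3, and without the 3 in-between libraries 7 did. Every acyl-CoA dehydrogenase described as apdG, 4 of 4, and 4 of 6 described as AFT10-1 fell. Whether the products with these names act on fatty acids in this species was not tested.

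AFT10-1 (A03131) was the most abundant of the 12. It is described as an acyl-CoA dehydrogenase, the enzyme type that takes the first step of the acyl-CoA chain's oxidation. A03131 was at 1039, 1102 and 1096 FPKM on PDA, 239, 231 and 122 on poplar wood, 105, 107 and 98.8 on fir wood and 337, 266 and 307 on straw. Straw kept the most and fir wood the least, and every substrate library lay below every PDA library. Its change in the mean was -2.57 ± 0.19 (adjusted p = 1.57e-06), and the substrates differed (F test adjusted p = 0.00062). AFT3-1 (A04459), described as an enoyl-CoA hydratase, the enzyme type that acts next, fell by 2.68 on the log2 scale. It went from 317 ± 24.4 to 43.6 ± 11.2, 38.6 ± 3.13 and 69.8 ± 4.51 FPKM. The acyl-CoA oxidase POX1 (A16337), which starts the peroxisomal cycle, and the thiolases (A04170 and A04190), which end it, changed by -2.38, -1.96 and -1.32, but none of the 3 passed on every substrate under median-of-ratios scaling. POX1 also lost the shared call without rice straw 3, A04170 without rice straw 2 or PDA 3, and A04190 without poplar wood 3. All 4 tested genes described as putative acyl-coenzyme A synthetase (AN10074), which activate fatty acids, fell too. The strongest, A16184, went from 292, 333 and 370.1 FPKM on PDA to 13.7, 31.9 and 15.7 on poplar wood, 17.8, 18.4 and 19.6 on fir wood and 83.6, 100.04 and 97.3 on straw. Averaged over substrates the log2 fold change was -3.31 ± 0.21 (adjusted p = 5.97e-07).

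The glyoxylate cycle, which makes sugar precursors from the acetyl units of fat, had 4 of 5 tested genes lower in the mean. The share over all tested genes was 14.4%. Against 5.06% of all tested genes, 2 of the 5 fell on all 3. Both were isocitrate lyase genes named ICL1, and neither was the main copy by level. A06133 was at 130.2, 248 and 345 FPKM on PDA against 25.6, 16.1 and 9.98 on poplar wood, 7.23, 10.3 and 8.36 on fir wood and 21.3, 9.82 and 18.1 on straw. Its log2 fold change in the mean was -4.01 ± 0.33 (adjusted p = 2.78e-06), with no overlap between PDA and any substrate. A19027 went from 50.2 ± 27.4 FPKM to 4.15 ± 0.853, 0.977 ± 0.239 and 2.01 ± 1.07. The more abundant ICL1 gene A09090 was not called in the mean and was higher on fir wood, at 677 ± 19.9 FPKM on PDA and 609.9 ± 370.3, 1831 ± 451 and 1169 ± 405 on the substrates. The malate synthase acuE (A01812) and the lyase ACU-7 (A18288) fell on both woods and were not called on straw, where they averaged 1905 ± 235 and 949 ± 20.8 FPKM against 2558 ± 299 and 1042 ± 75.6 on PDA.

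Enolase, phosphoglycerate mutase and pyruvate kinase genes of glycolysis fell on every material. Of 24 glycolysis genes 13 were lower in the mean and none higher, against 14.4% and 4.4% of all tested genes, with a median of -1.22. Against 5.06% of all tested genes, 5 fell on all 3 (4 under median-of-ratios scaling, 3 without the 3 in-between libraries). The list was lower most often on poplar wood, with 19 genes against 11 on fir wood and 6 on straw. All 5 act in the last steps of the pathway, from phosphoglycerate to pyruvate. Enolase A13643 was at 286, 242 and 219.9 FPKM on PDA, 32.6, 62.5 and 48.2 on poplar wood, 55.8, 39.2 and 68.6 on fir wood and 30.1, 101 and 66.4 on straw, a mean log2 fold change of -2.22 ± 0.31 (adjusted p = 0.000174). Its partner by description, A03835, went from 231 ± 36.8 FPKM to 49.1 ± 16.2, 57.1 ± 16.5 and 78.8 ± 37.6. The phosphoglycerate mutases gpm1 (A18560 and A03180) fell by 2.51 and 2.94 on the log2 scale. Pyruvate kinase pkiA (A04063), the last step, was lower by a similar amount on each material, at 151 ± 72, 151 ± 15.3 and 147 ± 11.4 FPKM against 413 ± 57 on PDA. Its log2 fold changes were -1.58, -1.44 and -1.47, and under median-of-ratios scaling it no longer passed on each substrate. In the pentose phosphate pathway 10 of 20 genes were lower in the mean (6 under median-of-ratios scaling), and transketolase TKL1 (A09796) and glucose-6-phosphate dehydrogenase gsdA (A08121) fell on all 3, by 2.57 and 1.32.

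Among 34 citrate cycle genes 8 were lower in the mean and 5 fell on all 3, against 14.4% and 5.06% of all tested genes. The count was 3 without rice straw 1, rice straw 3 or PDA 1. Cytoplasmic malate dehydrogenase MDH1 (A18679) was at 274, 349.7 and 402 FPKM on PDA, 25.8, 84.1 and 68.2 on poplar wood, 50.02, 48.7 and 59.1 on fir wood and 68.5, 74.9 and 73.5 on straw. Its other copy (A14908) ran almost level with it, at 343 ± 64.9 FPKM on PDA and 56.8 ± 30.8, 62.7 ± 3.32 and 74.5 ± 8.29 on the substrates. Averaged over the 3 materials they changed by -2.51 ± 0.28 and -2.44 ± 0.30. Pyruvate carboxylase pyc (A07269), which refills the cycle with oxaloacetate, fell in a graded way, from 351, 347 and 338 FPKM on PDA to 82.9, 87.4 and 88.6 on straw, 38.6, 36.6 and 41.5 on fir wood and 5.31, 20.8 and 13.9 on poplar wood. The 4 groups did not overlap, and the substrates differed (F test adjusted p = 0.000115). The second pyc gene (A08534) had -4.50, -3.17 and -1.73, but its call on straw was lost when any straw or PDA library was left out.

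Amino acid breakdown had 10 of 21 genes lower in the mean and none higher, against 14.4% and 4.4% of all tested genes. Its median was -0.999 against -0.29 over all genes. Against 5.06% of all tested genes, 7 fell on all 3 (5 under median-of-ratios scaling). The Δ1-pyrroline-5-carboxylate dehydrogenase pruA (A02934), which finishes proline breakdown, went from 159, 162 and 167 FPKM on PDA to 34.9, 54.2 and 39.95 on poplar wood, 35, 33.5 and 40.5 on fir wood and 55.1, 79.3 and 74.7 on straw. In the mean contrast it changed by -1.76 ± 0.16 (adjusted p = 7.27e-06), and under median-of-ratios scaling it did not pass on each substrate. The branched-chain aminotransferase BAT2 (A04566) fell by 2.66, the ornithine aminotransferases otaA (A15484 and A15552) by 1.64 and 1.82, and the phenylalanine ammonia-lyases str11 (A09101 and A09505) by 2.06 and 2.47. Glycine dehydrogenase gcv2 (A04430) completed the list at -1.33 and lost the shared call without poplar wood 1. Outside it, 4 of 5 tested nitronate monooxygenases (ncd-2), which oxidise nitroalkanes, fell. Of these A16210 went from 283 ± 32.9 FPKM to 30.03 ± 17.1, 14.4 ± 4.84 and 76.1 ± 4.27.

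Of 26 glutathione transferases, which couple glutathione to reactive compounds, 13 were lower in the mean and none higher, with a median of -1.07. Over all tested genes 14.4% were lower and 4.4% higher, with a median of -0.29. Against 5.06% of all tested genes, 8 fell on all 3 (6 under median-of-ratios scaling and 6 without the 3 in-between libraries). The most abundant of the 8, gst2 (A18278), was at 158, 225 and 278 FPKM on PDA, 59.4, 59.7 and 45.6 on poplar wood, 23.5, 31.1 and 22.5 on fir wood and 31.8, 52.8 and 46.6 on straw. Averaged over substrates the log2 fold change was -2.43 ± 0.21 (adjusted p = 3.88e-06). The largest fall of the list was ustS (A16531), from 44.3 ± 6.87 FPKM to 0.905 ± 0.864, 2.36 ± 0.344 and 4.35 ± 1.51, with no fragment in poplar wood 1. Antioxidant enzymes had 8 of 31 genes lower in the mean (2 under median-of-ratios scaling) and none that moved on all 3.

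The FAD-dependent monooxygenase dbaH (A04413) had one of the largest falls among the named genes. It was at 1400.5, 1176 and 891 FPKM on PDA, 34.5, 87.3 and 95.6 on poplar wood, 16, 16.6 and 12.6 on fir wood and 13.9, 24.4 and 21.3 on straw. Its log2 fold change in the mean was -5.35 ± 0.29 (adjusted p = 2.86e-07). Other named falls were the trans-enoyl reductase buaC (A05475, -3.96), the adenylate-forming reductase Nps10 (A08028, -4.13), the monooxygenases orf3 (A03961, -4.07) and str9 (A04216, -3.59), the reductase fgaOx3 (A15495, -3.65) and the drug exporter mdrA (A08875, -3.62). These names come from gene clusters of other fungi, and what the products make in this species is not stated in the table. By description, 4 of 9 Nps10 genes, 5 of 23 fgaOx3 genes, 4 of 4 aminotransferases tdiD and 3 of 3 mdrA genes fell on all 3 substrates. MGT1 (A00775), the methyltransferase that removes alkyl groups from DNA, was at 176, 211 and 219 FPKM on PDA, 7.07, 16.9 and 33.4 on poplar wood, 3.06, 1.46 and 3.12 on fir wood and 4.92, 8.04 and 6.1 on straw. A second gene for repair of alkylated DNA, atl1 (A13430), fell from 85.5 ± 5.57 FPKM to 9.79 ± 8.28, 3.28 ± 1.15 and 3.76 ± 1.11. In the mean they changed by -4.75 ± 0.34 and -3.96 ± 0.36.

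Of 159 transcription factors 2 were higher and 31 lower in the mean, with a median of -0.51, and 12 fell on all 3. The shares over all tested genes were 4.4%, 14.4% and 5.06%. Under median-of-ratios scaling 8 were higher and 16 lower in the mean, and 1 rose and 4 fell on all 3, so the count depends on the scaling. The zinc finger protein klf1 (A01918) went from 179 ± 9.51 FPKM to 55.7 ± 10.7, 59.6 ± 8.52 and 43 ± 10.1, and lost the shared call under median-of-ratios scaling. An activator of ABC transporter genes in Aspergillus, atrR (A01493), fell by 2.17 and was still called on each substrate after rescaling. Of 7 genes described as acu-15, which activates acetate-use genes in Neurospora, 3 fell, A03817 by 1.57. Autophagy, the recycling of cell contents in the vacuole, had 5 of 19 genes lower in the mean and 3 that fell on all 3. Both ATG8 genes, whose product coats the autophagosome, were among them. A12834 was at 872, 914 and 958 FPKM on PDA, 142, 180.3 and 150.5 on poplar wood, 203, 182 and 213 on fir wood and 288, 314 and 330.4 on straw, and A02530 at 739.6 ± 19.2, 187 ± 27.4, 198 ± 7.08 and 265 ± 24.9. Averaged over the 3 materials they changed by -2.10 ± 0.13 (adjusted p = 5.22e-07) and -1.79 ± 0.13.

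Few translation genes fell on all 3 materials, and other copies described as the same proteins did not. Of 85 cytosolic ribosomal protein genes 2 fell on all 3, against 5.06% of all tested genes. Both were described as 60S acidic ribosomal protein P2, a stalk protein that recruits elongation factors. A00646 had the larger fall, at 1425, 1059 and 696 FPKM on PDA against 12.7, 22.5 and 11.3 on poplar wood, 19.8, 20.5 and 14.7 on fir wood and 23.6, 13.1 and 23.5 on straw. Its change in the mean was -5.79 ± 0.27 (adjusted p = 1.56e-07), with -6.004, -5.73 and -5.64 on the 3 substrates. The next gene number, A00645, fell from 76.9 ± 17.7 to 13.4 ± 3.94, 24.3 ± 3.31 and 20.2 ± 3.61 FPKM. The other P2 gene shown, A05485, was lower on fir wood and not called on poplar wood or straw, at 944 ± 341, 452 ± 85.3 and 676 ± 55.5 FPKM on the substrates and 997 ± 215 on PDA. Elongation factor 1-alpha, which brings charged tRNA to the ribosome, also had copies that differed. TEF1 A02129 fell from 282 ± 57.6 FPKM to 49 ± 17.3, 17.1 ± 1.47 and 24.1 ± 1.03, a mean log2 fold change of -3.32 ± 0.21, while the more abundant copy A18418 was lower on fir wood and straw and not called on poplar wood, at 3950.5 ± 172 FPKM on PDA and 4635 ± 2031, 1588 ± 266 and 1762 ± 359.6 on the substrates.

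Over all tested genes 6.24% moved on all 3 substrates. No gene did so among 75 oxidative phosphorylation genes, 64 mitochondrial ribosome genes or 50 proteasome genes, nor in the small lists of 16 histones and 9 starch-degrading enzymes. In the mean contrast of the limma fit none of the 75 oxidative phosphorylation genes was called either way, and 4 were higher under median-of-ratios scaling. Among 101 spliceosome genes 1 fell (uap2, A06409), among 108 cell cycle and replication genes 2 fell (both cdc14, A10072 and A07747), and among 66 chaperones 1 fell (HSP26, A14225). The shared calls of uap2 (rice straw 1 or PDA 1) and A07747 (poplar wood 1 or PDA 1) each ended when a single library was left out. Under median-of-ratios scaling uap2 and both cdc14 genes lost the shared call, while HSP26 kept it. Sterol synthesis had 1 fall in 35, the sterol reductase erg24 (A09645, -1.21), which lost the shared call in 12 of 23 settings. Among these were median-of-ratios scaling and each leave-out of poplar wood 1, a rice straw library or a PDA library. Of 87 genes of chitin and glucan remodelling 5 were higher and 11 lower in the mean, against 4.4% and 14.4% of all tested genes. Against 5.06%, 2 fell on all 3, endochitinase chit46 (A13150, -1.36) and the glucan synthesis protein KRE6 (A08359, -1.56, lost without poplar wood 1, PDA 1 or PDA 2). Under median-of-ratios scaling the list turned, with 15 higher and 4 lower in the mean and 2 rises and no fall on all 3.

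**Figure D5:**
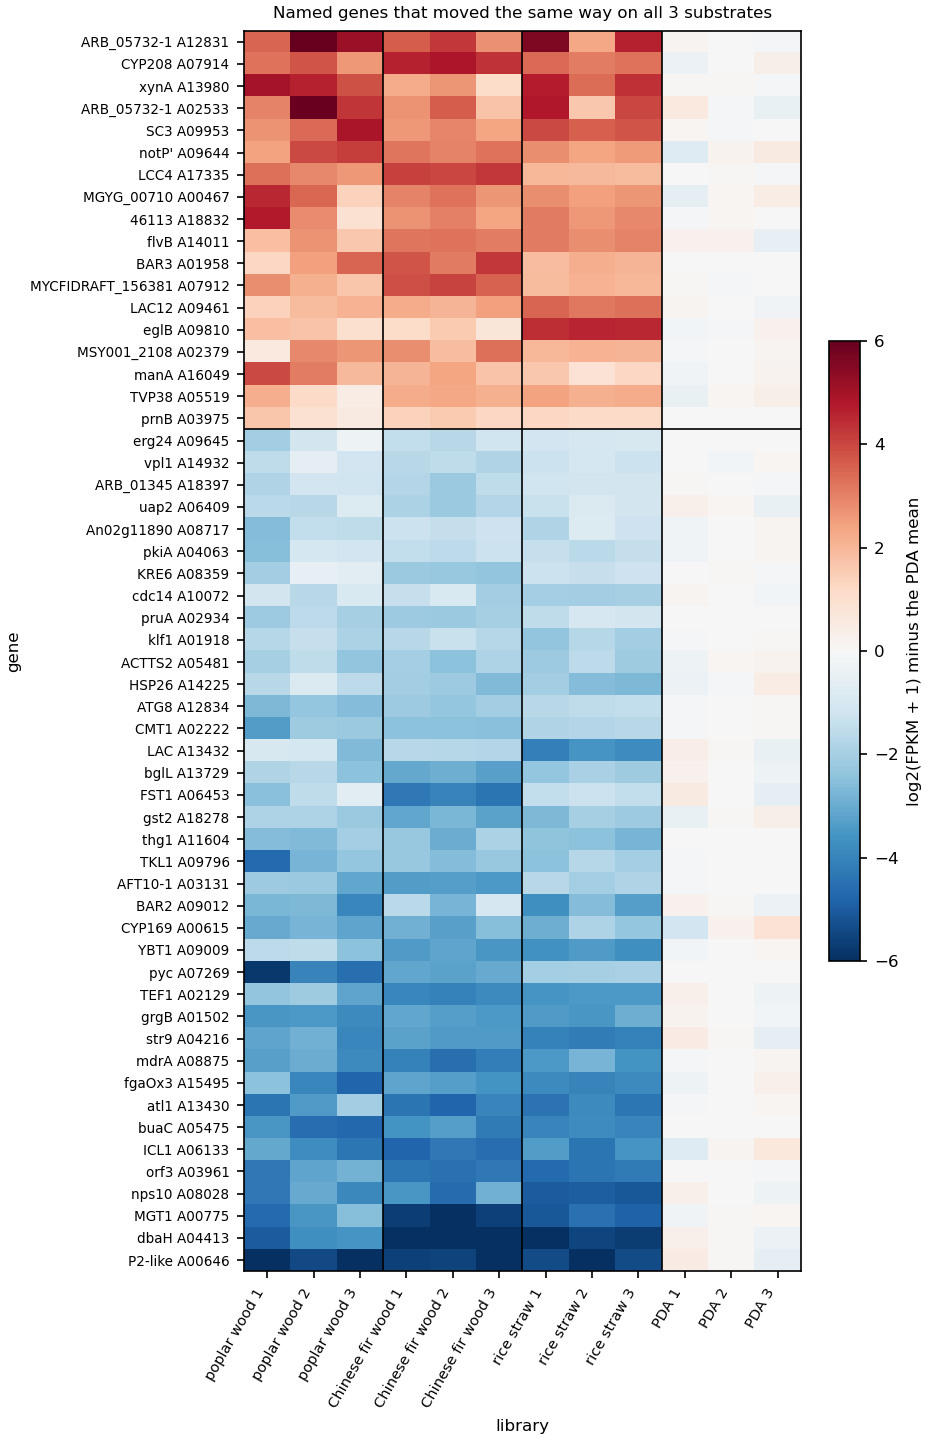
log2(FPKM + 1) minus the mean of the 3 PDA libraries (colour) for the named genes that rose (above the line) or fell (below it) on all 3 substrates, in the 12 libraries. The rises vary most over the poplar wood libraries and the cupredoxin genes ARB_05732-1 (A12831 and A02533) also within rice straw, while P2-like A00646, dbaH and MGT1 are low in every substrate library.

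Some members shared a description or had adjoining gene numbers. Of 1276 descriptions held by exactly 2 tested genes, both genes fell in 31, both rose in 2, 1 of the pair fell in 55 and 1 rose in 6. The enolase, gpm1, pyc, MDH1, ATG8, otaA and str11 pairs above are such cases. No source used here says how fragments that match both copies were assigned, so the values within a pair may not be independent. In all, 70 of the 76 described rises and 328 of the 419 described falls share their description with another tested gene. Of the 165 rises 28 (17.0%) had a gene number next to another rise, against 1.97% of the other tested genes, and of the 707 falls 143 (20.2%) were next to another fall, against 8.005%. The longest run held 5 falls (A01183 to A01187), with 2 genes described as YIR042C and 3 without description. Whether the numbers follow position in the genome is not stated in the table.

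Of the 165 rises 89 had no description, and the 4 undescribed genes given here were chosen after their values were seen. A04916 was at 1.59, 1.36 and 1.13 FPKM on PDA, 50.9, 194 and 318 on poplar wood, 3709, 2215 and 5293 on fir wood and 627, 634 and 645 on straw. Every substrate library stood far above PDA and fir wood was the highest, with log2 fold changes of 5.97, 10.55 and 8.08. A10471 rose from 2.95 ± 1.33 FPKM to 44.3 ± 26.4, 798 ± 169 and 59.8 ± 13.8. In the other direction A02239 fell from 2219, 3252 and 3967 FPKM on PDA to 130.1, 156 and 14.1 on poplar wood, 13.7, 23.8 and 10.8 on fir wood and 24.4, 34.7 and 27.9 on straw, and A18301 from 382 ± 65.3 FPKM to 52.5 ± 40.2, 0.395 ± 0.133 and 0.891 ± 0.728.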

How the data were processed

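Gene-level FPKM values of 12 libraries were taken from the table the authors deposited, with gene names and descriptions from the same table. Reads were trimmed, aligned, counted and compared with fastp, HISAT2, HTSeq and DESeq2, per the submitters' processing notes, which give no versions. The genome build, annotation and treatment of reads matching several genes are not given in the sources used here. Libraries came from poly(A) RNA extracted with TRIzol and were stranded, per the labels' protocols. The gene lengths used here were all multiples of 3 and were taken as coding lengths. Whether they are coding lengths was not tested, and their being multiples of 3 does not settle it.

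Genes with at least 1 FPKM in at least 3 libraries were kept, log2(FPKM + 1) was formed, and all 4 groups were fitted together with limma 3.58.1 (trend) in R 4.3.3, with Benjamini-Hochberg adjustment over 13974 genes. Fold changes are on that scale and understate those of low genes. Contrasts were each substrate against PDA, their equal-weight mean against PDA, and an F test among substrates. Tables and figures used Python 3.11.15 and matplotlib 3.10.9. The fit was also run on simulated data with known changes. That simulation gave all groups the same spread, unlike the poplar wood cultures here, and so does not cover unequal spread. FPKM were whole multiples of 1 read for all 16059 genes (tolerance 0.001 reads), which gave depth and a voom alternative.

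Gene lists were defined by words in the descriptions. Members and lists were chosen with earlier results of these data known, and some word patterns were extended afterwards. Named genes were the 12 rises and 12 falls with the largest smallest change among described genes of at least 10 FPKM without overlap with PDA, the most abundant riser and faller of each list, the 3 evenest rises and falls, and the 4 most opposed genes. Other members of the same lists and families were added after their values were seen. Replicate numbers were shared between groups, but deviations of same-numbered libraries correlated only from -0.19 to 0.33, so no pairing was assumed. Alternatives covered the pseudocount, filter, unit, scaling, fit, fold threshold, a replicate block and leaving out libraries.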

Additional observations from a re-analysis of the deposited data

Results flagged for a closer look

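For some named genes the 3 substrates differed from one another in a limma F test of their means, in the fit of all 4 groups (adjusted p below 0.05 by Benjamini-Hochberg), and the value given is the range of the 3 log2 fold changes against PDA. Over all tested genes 61.4% differed in that test, so a difference among materials is the usual case. Among genes that rose on all 3 materials the range was 1.37 for CYP208 (A07914), 1.68 for BAR3 (A01958), 1.15 for flvB (A14011), 2.48 for xynA (A13980), 1.83 for the aldo-keto reductase (A07912), 2.16 for LCC4 (A17335), 3.37 for eglB (A09810), 1.76 for manA (A16049), 1.51 for LAC12 (A09461) and 0.99 for TVP38 (A05519). Among those that fell it was 2.07 for dbaH (A04413), 1.35 for nps10 (A08028), 2.30 for MGT1 (A00775), 0.998 for orf3 (A03961), 0.79 for str9 (A04216), 0.96 for mdrA (A08875), 2.25 for LAC (A13432), 1.10 for bglL (A13729), 1.21 for KRE6 (A08359), 0.72 for a serine carboxypeptidase (A18397) and 2.82 for FST1 (A06453). Further falls had 1.72 for YBT1 (A09009), 2.78 for pyc (A07269), 1.54 for AFT10-1 (A03131), 0.91 for pruA (A02934), 1.07 for gst2 (A18278), 1.09 for HSP26 (A14225), 0.86 for uap2 (A06409), 0.98 for ATG8 (A12834), 0.82 for CMT1 (A02222), 1.41 for BAR2 (A09012) and 1.40 for TEF1 (A02129). These genes moved the same way on every substrate and differed in how far. Genes that moved in opposite directions had 8.25 for phosphoketolase (A18876), 8.10 for phosphoketolase (A19231), 7.65 for hsp16 (A16534) and 6.53 for hsp16 (A09813). For the last 4 genes the PDA libraries themselves spread widely.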

How the results depend on the processing

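As reported, 2626 genes were called in the mean contrast (615 higher, 2011 lower) and 872 on all 3 substrates (165 and 707). Scaling moved the balance. Median-of-ratios scaling gave 1027 higher and 1133 lower, and 258 and 410 shared. Quantile normalisation gave 1014 and 1199, with 451 shared falls. Pseudocount 5 gave 1649 calls, 1226 lower, and 574 shared, 101 higher. With no fold threshold there were 5917 calls (1351 and 4566) and 1730 shared (291 and 1439). At an absolute log2 fold change of 2 there were 582 (169 and 413) and 160 (24 and 136). Without the 3 in-between libraries 500 were shared (65 and 435) and 4334 differed among substrates, with fewer samples and with the replicates that differ most kept. Without the poplar wood group, which asks for 2 substrates, 1729 were shared (364 and 1365). Leaving out 1 library at a time gave 2447 to 2867 calls, of which 558 to 678 were higher and 1869 to 2189 lower, 777 to 965 shared (137 to 204 higher, 638 to 761 lower), and 7258 to 10170 differing among substrates. With the replicate block 2619 genes were called (617 and 2002), 876 were shared (167 and 709) and 8453 differed among substrates, so it changed no count by over 1.5 times. In voom on the worked-back reads 185 rose and 849 fell on all 3. Leaving aside the fold thresholds and the fit without poplar wood, 47 rises and 276 falls were kept in all 23 settings. Direction changed for 4 opposed genes. The mean log2 fold change of hsp16 A09813 was 0.34 and became -1.51 without PDA replicate 3. Without poplar wood A18876 was 0.85, A19231 1.22 and hsp16 A16534 0.76. Apart from the constructions named, the cause was not tested. At 33.1 reads or more per FPKM in a gene of median length, the changes of genes near 1 FPKM are set partly by the pseudocount.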

Other observations

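A few genes were called on the substrates in opposite directions, 310 of the tested genes or 2.22%. Poplar wood and rice straw were the pair most often split, with 103 genes higher on poplar wood and lower on straw and 125 the reverse, while fir wood and straw split 8 and 87 ways. Of 85 ribosome biogenesis genes, which build new ribosomes in the nucleolus, 21 were among them. On poplar wood 52 of the list were higher and 1 lower than on PDA, against 8.3% and 17.1% of all tested genes. On straw none was higher and 32 were lower, against 6.81% and 14.1%. The 2 phosphoketolase genes (A18876 and A19231), which split sugar phosphates to acetyl phosphate, were lower on poplar wood and higher on straw. A18876 was at 0.383, 2.22 and 1.97 FPKM on poplar wood, 79.2, 34.4 and 119 on fir wood, 385, 1191 and 816 on straw and 324, 174 and 33.4 on PDA. A small heat shock gene, hsp16 (A16534), had the same order, at 4.47, 2.96 and 2.14, 31.8, 36.8 and 25.8, 405, 1353 and 1004 and 371, 187 and 11.6 FPKM. For both, PDA 3 was far below the other PDA libraries.

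Counts by deposited pathway label, chosen after the values were seen and not tested, were 18 of 88 peroxisome genes fallen on all 3 substrates, 11 of 35 of fatty acid degradation, 11 of 46 of tryptophan metabolism and 9 of 38 of valine, leucine and isoleucine degradation, against 5.06% of all tested genes. Of genes called in the mean of the substrates 1754 were not members. Of these 1407 were called the same way on 2 substrates and 344 on 1.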
